A study of Mus musculus with 16 samples.

Results

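Islets from 60-week-old male mice that had lost Tff2 from the pancreatic epithelium were compared with islets of control mice by sequencing of polyadenylated RNA. The comparison took the 5 knockout and 5 control islet libraries, chosen by their labels, out of 16 libraries in the series, and covered every gene in the islet table. Controls were Tff2fl/fl, with both Tff2 alleles flanked by loxP sites and no Cre recombinase. Knockouts (KO) were Pdx1:Cre;Tff2fl/fl, in which Cre is driven by the Pdx1 promoter, active in the pancreatic epithelium that gives rise to acinar, duct and endocrine cells. Since the controls carried no Cre, effects of the Cre transgene and of Tff2 deletion cannot be told apart. Islets were freed with collagenase, enriched on a density gradient and picked by hand, and each library came from the islets of a single mouse. The other 6 libraries were whole pancreata from embryos at embryonic day 16.5 (E16.5) with the same alleles. The question set by the series title is what trefoil factor 2 from acinar cells does for islets during ageing.

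Trefoil factor 2 is a small secreted peptide, made in the stomach by mucous neck cells and in mouse pancreas by acinar cells, that takes part in repair of epithelia, and CXCR4 has been proposed as a receptor for it. Islets hold insulin-producing beta cells, glucagon-producing alpha cells, somatostatin-producing delta cells and pancreatic polypeptide cells, together with endothelial cells, pericytes and macrophages. Beta cells secrete insulin from dense-core granules when glucose metabolism closes ATP-sensitive potassium channels and calcium enters, and receptors for fatty acids and incretin hormones adjust that secretion.

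Read totals per library ranged from 22595400 to 32385042. Levels are given as CPM, reads divided by the scaled library size, as mean ± SD over 5 mice of a group, and single values are listed in the order control 052, 826, 829, 857 and 858, and KO 055, 122, 803, 812 and 845, where the numbers name the animals. Ins1 and Ins2 together took 10% to 12.7% of reads in each islet library. The first principal component of the 10 islet libraries held 23.5% of the variance and the second 20.9%, and neither separated the genotypes. KO 055 and control 052 lay together, at -14.2 and -12.5 on the first component and at 11.9 on the second. They also had the highest levels of Fos (1790 and 1580 CPM, the others at most 622 CPM) and Egr1 (1350 and 1250 CPM, the others at most 565 CPM), immediate early genes that cells switch on within minutes of a stimulus.

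Tff2 (chr17:31141062-31144282, mm10), the targeted gene, was checked first. In controls 25, 69, 30, 135 and 62 reads fell on it, and in KO libraries 0, 12, 16, 8 and 2 reads. Every KO library was below every control library, at 0.277 ± 0.221 against 2.44 ± 1.52 CPM, so no library went against its label. The 0 reads of KO 055 allow a level of up to 0.116 CPM (3 reads, counting error only). The fitted log2 fold change was -3.07 (SE 0.594), which is 8.4-fold lower, but with an adjusted p of 0.0884 in the quasi-likelihood test of edgeR the gene did not pass the threshold of 0.05 used throughout (adjusted p = 0.0101 with DESeq2). The sources used here do not say which exons were floxed, and reads from exons outside the deleted part would still be counted.

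Tff2 was rare in these islets, at 8.29 TPM (a level per gene length) in controls, and the acinar cells in which it is known to be made contributed few reads. The 24 acinar enzyme and regulator genes on the list took 0.0613% to 0.2% of reads in controls and 0.0284% to 0.262% in KO libraries. The control libraries with the highest Tff2, 857, 826 and 858 at 4.7, 2.93 and 2.46 CPM, had summed acinar levels of 1680, 1720 and 2000 CPM, and control 052 and 829, at 1.11 and 0.977 CPM, had 627 and 671 CPM. KO 122 had the highest acinar sum of all, 2590 CPM, with Tff2 at 0.463 CPM, and KO 812 the lowest, 287 CPM, with Tff2 at 0.358 CPM. Tff2 was thus low in KO libraries at both ends of the acinar range. With the acinar level as a covariate the log2 fold change of Tff2 was -3.05 (adjusted p = 0.0567).

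**Figure D1:**
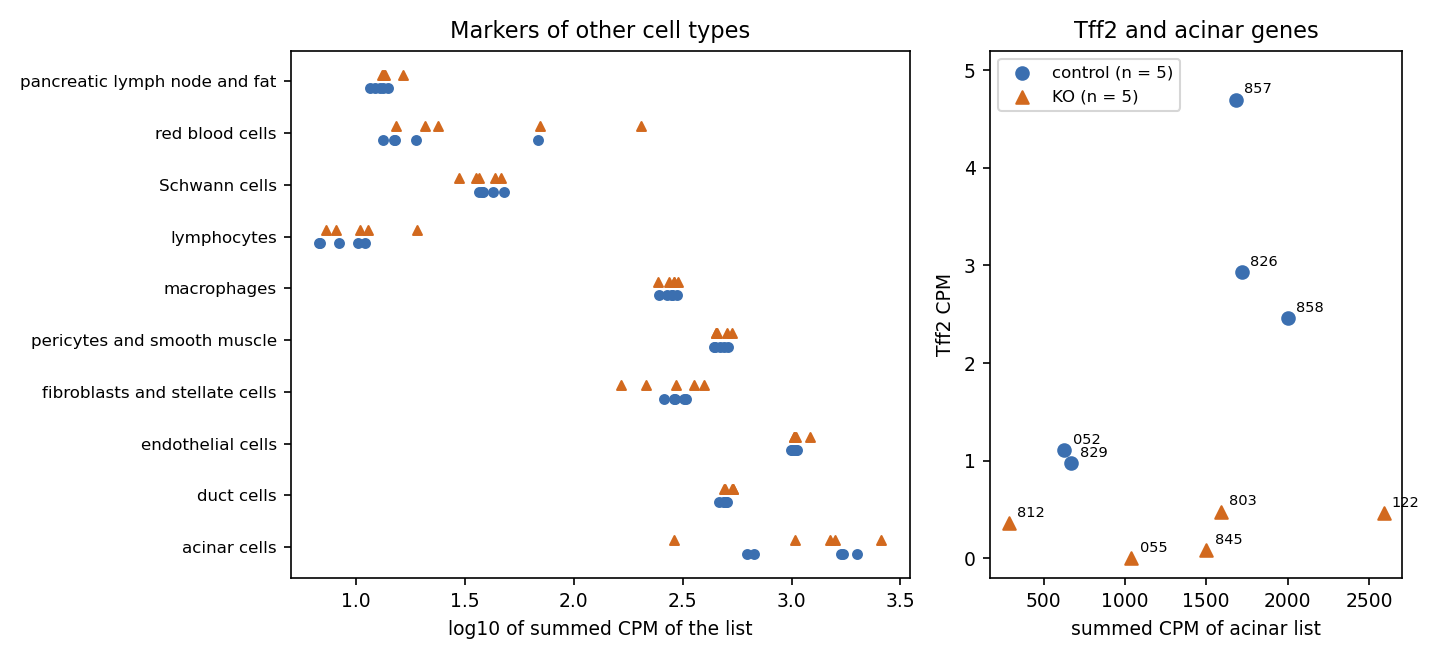
Left, summed CPM of marker lists of other cell types on a log10 axis, 1 point per islet library, controls as circles and KO as triangles. Right, Tff2 against the summed acinar list, both in CPM, with animal numbers. KO libraries stay under 0.48 CPM of Tff2 at acinar sums from 287 to 2590 CPM, and controls lie between 0.977 and 4.7 CPM.

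Of 24091 genes in the table, 14219 had enough reads to be tested, and 22 passed an adjusted p of 0.05. That is 0.155% of the genes tested. In KO islets 16 of them (0.113%) rose and 6 (0.0422%) fell. For scale, 1021 genes (7.18%) had an unadjusted p under 0.05, 493 of them higher (3.47%) and 528 lower (3.71%), and in 221 genes (1.55%) the 5 KO values did not overlap the 5 control values (0.781% with KO higher, 0.774% with KO lower). All 22 genes that passed are among the latter, and choosing genes by a low p favours this. Most changes were small: 5 of the 22 differed by at least 2-fold (Zfp423, Aass, Cdh23, Cldn2 and Mlph) and 14 by less than 1.5-fold. Across all genes tested the median log2 fold change was -0.001 and the middle 90% lay between -0.22 and 0.25. DESeq2 passed 111 of 14799 genes (0.75%), 64 higher (0.432%) and 47 lower (0.318%), and limma-voom with sample weights passed 31 (0.218%). Counts were also simulated, with the spread that edgeR estimated, which may favour edgeR. DESeq2 made more false calls on them than edgeR or voom, and a larger share than its threshold allows. A pass with DESeq2 alone is therefore given as a value of that tool and not as support. The DESeq2 calls held all 22 genes and the voom calls 20 of them, without Zfp423 and Cdh23.

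The number of genes passing depended on single animals. It was 26 without KO 055, 16 without KO 122, 8 without KO 803, 6 without KO 812 and 14 without KO 845. It was 8 without control 052, 8 without control 826, 19 without control 829, 6 without control 857 and 5 without control 858. All 22 genes kept their direction in each of these 10 fits. Zfp423, Ffar2, 9030617O03Rik, Ppp1r10 and Aass also stayed past the threshold in all 10, and the other 17 lost it in at least 1. Without KO 055 and control 052 together, a choice made after the data were seen, 8 genes passed and 4 of these were among the 22: Zfp423, Ffar2, 9030617O03Rik and Ppp1r10. Among the animals whose numbers begin with 8, 3 KO and 4 control, 16 genes passed and 7 of these were among the 22: the same 4, Mlph, Tmem229b and Cldn2.

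**Figure D2:**
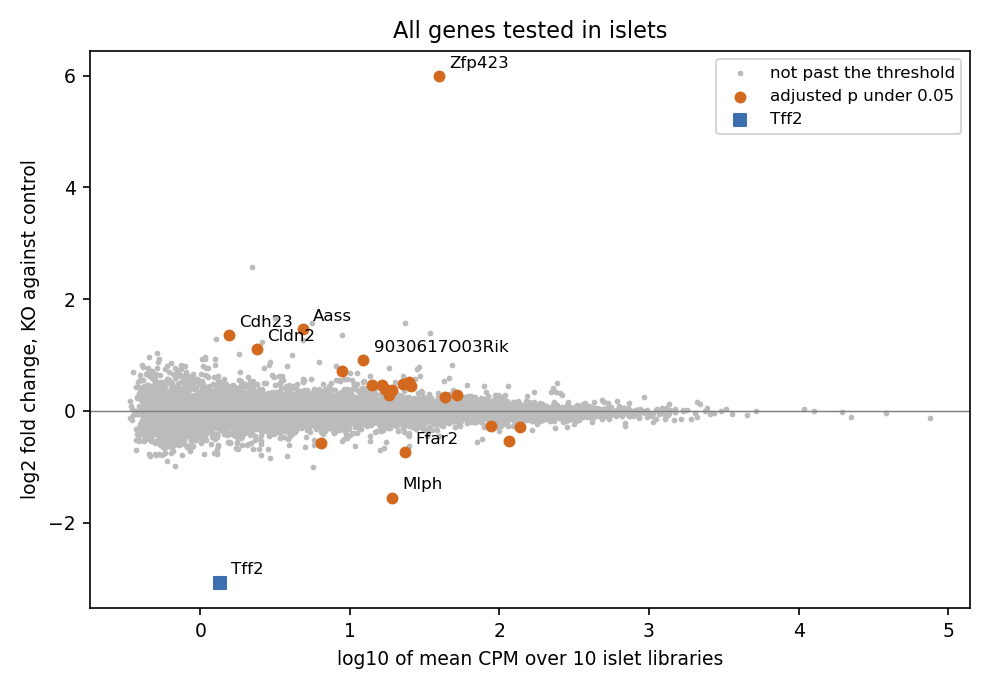
Log2 fold change, KO against control, of each of the 14219 genes tested against the log10 of its mean CPM over the 10 islet libraries. Orange circles are the 22 genes past an adjusted p of 0.05, and Zfp423 lies far above all other genes, at 5.99.

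**Figure D3:**
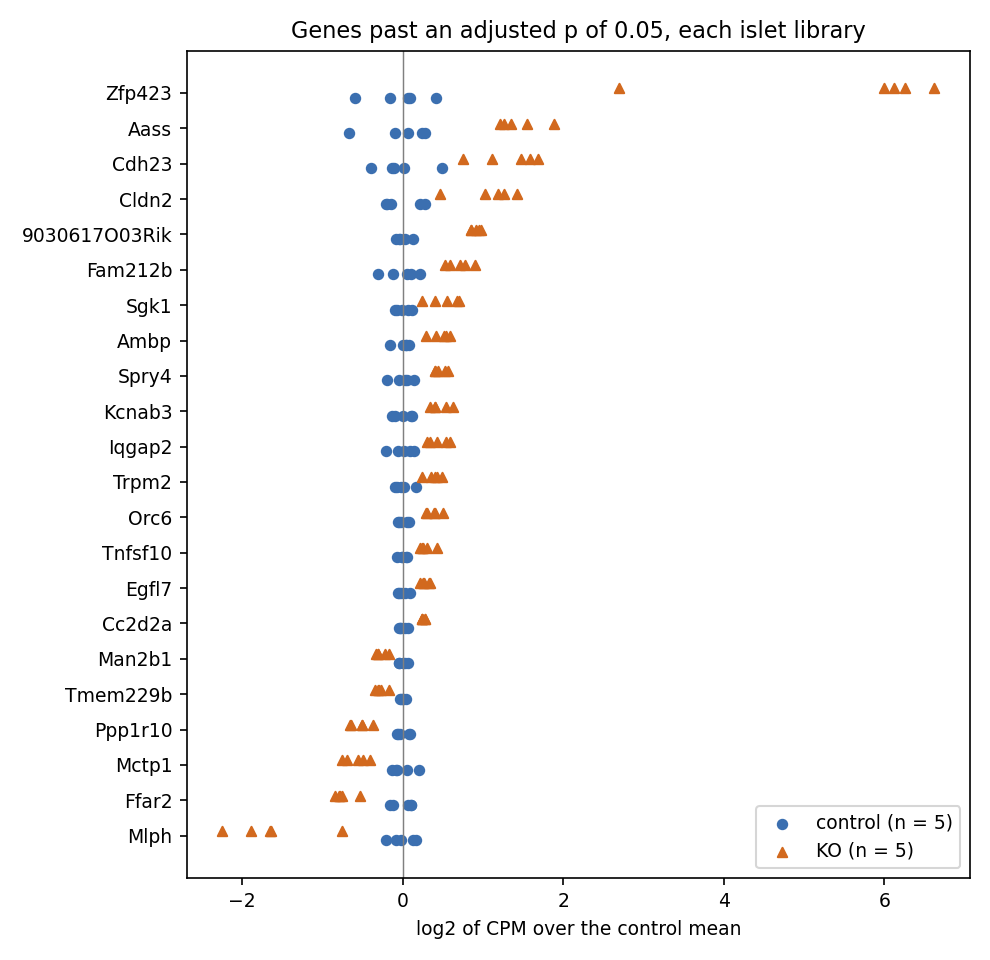
Each of the 10 islet libraries for the 22 genes that passed, as log2 of the CPM over the control mean, controls as circles and KO as triangles. The groups do not overlap in any of the 22, and in Zfp423 KO 055 lies apart from the other 4 KO libraries.

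Zfp423 (chr8:87661810-87959595, minus strand), which codes for a zinc finger transcription factor that binds SMAD and EBF proteins and is known for its part in fat cell commitment and cerebellar development, showed the largest change. Control islets held 1.64, 1.1, 0.814, 1.29 and 1.31 CPM and KO islets 7.93, 85.3, 93.7, 121 and 78.3 CPM. All KO libraries were above all controls, but KO 055 was 6.44-fold over the control mean and the other 4 were 63.6-fold to 98.2-fold over it. Means were 77.2 ± 42 and 1.23 ± 0.303 CPM, or 30.4 and 0.468 TPM, and the gene rose by 5.99 on the log2 scale (SE 0.644, adjusted p = 0.00268). Leaving out any single library kept the call, with log2 fold changes from 5.77 to 6.28. With limma-voom, which weights libraries by their scatter, the log2 fold change was 5.68 and the adjusted p 0.297.

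The other 9 tested members of the list of Zfp423 relatives and partners did not pass the test. The related zinc finger gene Zfp521 was at 3.1 ± 0.602 CPM in controls and 3.14 ± 0.837 CPM in KO islets, and Ebf1 at 7.38 ± 0.741 and 7.6 ± 0.861 CPM. Smad1 and Smad5, transducers of BMP signals, were slightly lower, by -0.16 and -0.10 on the log2 scale with unadjusted p of 0.0188 and 0.0394, and neither passed after adjustment. Zfp423 is a known regulator of adipocyte genes, and of the 11 on that list 6 had enough reads to be tested. A response in fat cells could hardly be seen with so few. None of the 6 tested passed with edgeR, DESeq2 or voom, none had an unadjusted p under 0.05, and their median log2 fold change was 0.01. Pparg, the master regulator of fat cells, was at 16.6 ± 1.94 and 14.8 ± 1.72 CPM, Lpl (lipoprotein lipase) at 286 ± 51.4 and 264 ± 46.1 CPM, and Adipoq, Plin1 and Lep had 0 reads in all 10 libraries, which allows up to 0.0897 to 0.134 CPM per library. Among the BMP target genes 0 of 9 passed with edgeR, DESeq2 or voom. Id2, Smad6 and Smad7 had unadjusted p under 0.05 (7.18% of all genes), all with higher means in KO islets. Smad7, an inhibitor of SMAD signalling, was at 16.1 ± 1.06 against 14.2 ± 0.62 CPM, and the BMP pseudoreceptor Bambi was at 36.3 ± 7.08 against 37.9 ± 7.87 CPM.

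Promoters follow for Zfp423, the gene with the largest change, and for Mlph and Ffar2, with lower means in KO tissue at both ages. They are the 250 bases before the start site, on the gene's strand, from RefSeq on GRCm38.p6. All 3 genes matched an entry. Capitals mark matches to the GC box GGGCGG, searched on both strands together with TATAAA and CCAAT.
Zfp423 (chr8:87959596-87959845, minus strand): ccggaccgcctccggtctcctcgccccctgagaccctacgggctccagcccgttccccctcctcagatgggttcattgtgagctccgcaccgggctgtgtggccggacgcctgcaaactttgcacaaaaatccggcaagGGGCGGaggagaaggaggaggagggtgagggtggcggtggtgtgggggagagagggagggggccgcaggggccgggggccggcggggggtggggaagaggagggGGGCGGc
Mlph (chr1:90914850-90915099, plus strand): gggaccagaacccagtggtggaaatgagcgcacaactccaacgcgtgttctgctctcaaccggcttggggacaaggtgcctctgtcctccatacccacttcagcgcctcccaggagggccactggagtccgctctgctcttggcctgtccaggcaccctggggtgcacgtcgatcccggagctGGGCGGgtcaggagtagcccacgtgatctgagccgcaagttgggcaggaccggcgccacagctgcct
Ffar2 (chr7:30823776-30824025, minus strand): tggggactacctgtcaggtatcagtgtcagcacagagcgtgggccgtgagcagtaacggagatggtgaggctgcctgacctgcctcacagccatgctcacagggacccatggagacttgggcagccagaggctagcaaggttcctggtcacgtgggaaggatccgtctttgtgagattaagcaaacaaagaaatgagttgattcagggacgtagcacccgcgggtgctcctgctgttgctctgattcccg
The Zfp423 window held 2 matches to GGGCGG and was 71.6% G or C, the Mlph window held 1 match at 64.8%, and the Ffar2 window held none at 56.8%. Neither TATAAA nor CCAAT was found in the 3 windows. Of 32851 mouse promoter windows of this length, 32.7% hold GGGCGG, 12.4% TATAAA and 33.8% CCAAT, and the median G or C content is 52.4%.

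Orc6 and Man2b1 lie on chromosome 8 within 5 Mb of Zfp423, and all 3 passed the test. This neighbourhood was chosen after the values were seen. Orc6 (chr8:85299632-85308279), a subunit of the origin recognition complex of DNA replication, rose from 16.5 ± 0.67 to 21.5 ± 1.35 CPM (log2 fold change 0.38, adjusted p = 0.0211). Man2b1 (chr8:85083269-85098739), a lysosomal alpha-mannosidase, fell from 95.9 ± 3.07 to 79.5 ± 3.87 CPM (log2 fold change -0.27, adjusted p = 0.0249). Within 5 Mb of Zfp423, 88 other genes were tested and 20 of them (22.7%) had an unadjusted p under 0.05, against 7.18% of all genes. Around the other 21 genes that passed, the same share ranged from 2.27% (Sgk1, 44 genes) to 23.8% (Tnfsf10, 21 genes), and windows around Orc6 and Man2b1 overlap that of Zfp423. Of the 20 genes, 10 were higher and 10 lower in KO islets. They include Vps35, a subunit of the retromer that sorts endosomal cargo (395 ± 14.4 against 356 ± 13.5 CPM, unadjusted p = 0.00301). The kinase gene Mast1 (21.5 ± 1.81 against 28.3 ± 4.36 CPM, unadjusted p = 0.00229) is also among them. Gm38426, which overlaps Mast1 on the other strand, went the opposite way (6.56 ± 0.232 against 4.43 ± 0.901 CPM, unadjusted p = 0.000736). The division of reads between Mast1 and Gm38426 is uncertain. Orc6 and Man2b1 were the only ones of the 20 to pass after adjustment with edgeR. On chromosome 17, which carries Tff2, 1 gene passed, Ppp1r10 at a distance of 4.77 Mb. Over all genes tested 0.155% passed, and the share on chromosome 17 was not worked out. Within 5 Mb of Ppp1r10, 163 other genes were tested. Of these 7 (4.29%), Tff2 among them, had an unadjusted p under 0.05, against 7.18% of all genes.

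Ffar2 (chr7:30818357-30823775), a receptor for the short-chain fatty acids acetate, propionate and butyrate that is found on beta cells, fell. Control islets held 30.3, 26.7, 31.1, 25.9 and 31 CPM and KO islets 17.2, 16.8, 16.7, 16.2 and 20 CPM. The groups were well apart, and within the KO group only 845 was above 17.2. Means were 29 ± 2.51 and 17.4 ± 1.5 CPM (log2 fold change -0.74, SE 0.0735, adjusted p = 0.00205), a 1.67-fold decrease that kept its call in every fit with 1 library left out. The other 8 tested fatty acid and nutrient receptors did not pass. Ffar3, the second short-chain fatty acid receptor and a neighbour of Ffar2, was at 23.4 ± 1.94 in controls and 20.4 ± 2.08 CPM in KO islets (unadjusted p = 0.0226, adjusted p = 0.581). Ffar1, the long-chain fatty acid receptor of beta cells, was at 57.8 ± 2.13 and 54.6 ± 2.94 CPM, and the niacin receptor gene Hcar2 at 2.28 ± 0.263 and 2.79 ± 0.381 CPM. Per length the 3 fatty acid receptors in control islets were ordered Ffar1 (122 TPM), Ffar3 (27.5 TPM) and Ffar2 (19.5 TPM), and in KO islets Ffar2 was at 12.1 TPM.

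Mlph (chr1:90915100-90951142) codes for melanophilin, which links RAB27A on granules to the motor myosin Va and is best known from melanosome transport in pigment cells. It fell from 24.8, 27, 28.3, 31.2 and 32 CPM in controls to 9.17, 16.9, 7.74, 6.04 and 9.09 CPM in KO islets. KO 122 was the highest of the KO group but still below the lowest control. Means were 28.7 ± 2.97 and 9.79 ± 4.18 CPM (log2 fold change -1.55, SE 0.21, adjusted p = 0.0183), 2.93-fold lower. Its call was lost without KO 803, control 857 or control 858, the adjusted p reaching 0.056 without control 858, without KO 055 and control 052 together (0.082) and with robust edgeR (0.0505). The rest of the granule transport and exocytosis list, 19 genes, did not pass. Rab27a, the binding partner, was at 327 ± 12.9 in controls and 327 ± 11.4 CPM in KO islets, and Myo5a, the motor, at 207 ± 16.6 and 200 ± 13.9 CPM. Other RAB27A effectors overlapped between the groups, Myrip at 13.5 ± 2.97 and 13.4 ± 1.53 CPM and Sytl4 (granuphilin) at 411 ± 27 and 387 ± 22.9 CPM.

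A pair of mitochondrial enzymes of amino acid breakdown rose. 9030617O03Rik (chr12:100779123-100896980), also named Dglucy and coding for D-glutamate cyclase, had the lowest p of all genes. Control islets held 8.69, 8.07, 8.31, 9.27 and 8.28 CPM and KO islets 16.1, 16.5, 16.7, 15.4 and 15.3 CPM. The spread within each group was small beside the gap between them, 8.52 ± 0.475 against 16 ± 0.64 CPM (log2 fold change 0.91, SE 0.059, adjusted p = 3.18e-05). Aass (chr6:23072173-23132986), the enzyme of the opening steps of lysine breakdown, was at 2.39, 1.61, 3.03, 3.1 and 2.69 CPM in controls and 9.44, 6.51, 5.92, 7.52 and 6.16 CPM in KO islets. Its lowest KO value lay well above the highest control value (log2 fold change 1.46, SE 0.181, adjusted p = 0.00898), and the call was lost without KO 055 and control 052 together (log2 fold change 1.31, adjusted p = 0.0511). The other 7 tested genes of lysine and D-glutamate breakdown did not pass. Gcdh, a later enzyme of the lysine pathway that also lies near Zfp423, had a lower mean in KO islets, 37.5 ± 2.97 against 41.9 ± 2.6 CPM (unadjusted p = 0.0218). The assignment of reads to 9030617O03Rik is uncertain where the use of strand in counting is unknown.

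Ppp1r10 (chr17:35916983-35932283) codes for PNUTS, a nuclear targeting subunit of protein phosphatase 1 that acts on transcribing RNA polymerase II. It fell from 132, 134, 146, 145 and 131 CPM in controls to 106, 96.4, 87.4, 88 and 96.5 CPM in KO islets. Every KO library was below every control, with means of 138 ± 7.4 and 94.9 ± 7.7 CPM (log2 fold change -0.54, SE 0.0582, adjusted p = 0.00268). Tmem229b, a membrane protein gene, fell from 151 ± 3.52 to 125 ± 5.52 CPM (log2 fold change -0.28, adjusted p = 0.0184). Mctp1, which codes for a calcium-binding C2 domain protein of the endoplasmic reticulum, fell from 7.71 ± 0.741 to 5.17 ± 0.508 CPM (log2 fold change -0.58, adjusted p = 0.0474).

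Cdh23 and Cldn2, which code for cell surface and junction proteins, rose more than 2-fold from low levels. Cdh23, a long cadherin known from the tip links of hair cells, was at 0.665, 0.807, 0.879, 1.22 and 0.792 CPM in controls and 2.62, 1.89, 2.81, 2.42 and 1.47 CPM in KO islets. KO 845 came closest to the controls, and the log2 fold change was 1.35 (SE 0.22, adjusted p = 0.0383; 0.0591 with voom). Cdh23 spans Vsir on the other strand, at 6.16 CPM with a log2 fold change of 0.05. Cldn2, a claudin that forms cation pores in leaky epithelia, was at 1.82, 1.36, 1.3, 1.74 and 1.31 CPM in controls and 3.43, 2.08, 3.05, 3.62 and 4.05 CPM in KO islets. KO 122 was the lowest of its group, and the log2 fold change was 1.10 (SE 0.188, adjusted p = 0.0496). The other 14 tested claudin and tight junction genes did not pass.

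The remaining genes that rose did so by 1.19-fold to 1.63-fold. Among signalling genes, Spry4, a feedback inhibitor of receptor tyrosine kinases, rose from 11.8 ± 1.02 to 16.3 ± 0.87 CPM (log2 fold change 0.47, adjusted p = 0.0229). Sgk1, a kinase induced by serum and glucocorticoids, rose from 20.4 ± 1.29 to 29.2 ± 3.76 CPM (0.52, adjusted p = 0.0383), and Tnfsf10, the death receptor ligand TRAIL, from 46.9 ± 1.67 to 57.2 ± 3.49 CPM (0.29, adjusted p = 0.0383). Among channel genes, Trpm2, a cation channel opened by ADP-ribose and oxidative stress that takes part in insulin secretion, rose from 14.8 ± 1.06 to 19.3 ± 1.27 CPM (0.38, adjusted p = 0.0474). Kcnab3, a beta subunit of voltage-gated potassium channels, rose from 13.8 ± 1.07 to 19.1 ± 1.58 CPM (0.46, adjusted p = 0.0312).

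Genes of other functions rose as well. Ambp, the precursor of alpha-1-microglobulin and bikunin, went from 18.8 ± 1.22 to 26.2 ± 2.12 CPM (log2 fold change 0.47, adjusted p = 0.0188). Cc2d2a, a protein of the ciliary transition zone, went from 39.4 ± 1.29 to 47.1 ± 0.682 CPM (0.26, adjusted p = 0.0184), with the 5 KO values between 46.5 and 47.8 CPM. Iqgap2, a cytoskeletal scaffold, went from 21.8 ± 2.01 to 29.5 ± 2.54 CPM (0.44, adjusted p = 0.0496), and Fam212b from 6.73 ± 0.929 to 11 ± 1.13 CPM (0.71, adjusted p = 0.0249). Egfl7, secreted by endothelial cells, went from 16.6 ± 0.732 to 20.1 ± 0.692 CPM (0.28, adjusted p = 0.0498). The summed endothelial list ranged from 996 to 1060 CPM in controls. That sum was 1220 CPM in KO 055 and 1030 to 1050 CPM in the other KO islets, inside the control range. Its part in the change of Egfl7 was not tested.

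The calls of most of these genes depended on which animals were included. With 1 of the 10 libraries left out in turn, Egfl7 and Mctp1 passed in none of the fits. Cdh23, Cldn2, Iqgap2, Kcnab3, Sgk1 and Tnfsf10 passed in 1 each, Man2b1 and Trpm2 in 2, and Fam212b in 3. Ambp and Spry4 passed in 4, Cc2d2a and Orc6 in 5, and Tmem229b in 6. The highest adjusted p reached was 0.167, for Egfl7 without control 857. Iqgap2 reached 0.163 without KO 803 and Cldn2 0.15 without control 858. Without control 052, 8 of the 22 genes passed, and without control 858, 5 did.

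The 10 genes next below the threshold had adjusted p from 0.0503 to 0.0835. Their groups did not overlap, against 1.55% of all genes, but choosing genes by a low p favours this. Higher in KO islets were Fam167a (23 ± 2.31 against 13.4 ± 3.09 CPM), the small GTPase gene Arl4c (10.2 ± 1.13 against 7 ± 0.634), Enpp2 (259 ± 15.7 against 196 ± 22.1), which makes lysophosphatidic acid, and Nefm (33.7 ± 2.22 against 26.4 ± 2.16), a neurofilament subunit. Lower were Thap2 (24.3 ± 0.828 against 28.7 ± 0.636 CPM), Cnot8 (38.1 ± 2.18 against 46.3 ± 2.62), a subunit of the CCR4-NOT deadenylase, and Jade3 (104 ± 2.32 against 120 ± 5.55). The remaining 3 were Aldh1a3, Ccng1 and Eda2r.

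Aldh1a3, a retinaldehyde dehydrogenase used as a marker of dedifferentiated beta cells, was at 13, 7.18, 17.5, 12 and 9.07 CPM in controls and 63.1, 26.4, 25.4, 31 and 30.8 CPM in KO islets. Every KO value was above every control value, and KO 055 was highest. The log2 fold change was 1.58 (SE 0.28, adjusted p = 0.0552). It passed with DESeq2 (0.000702), voom (0.0364), no filter on low counts (0.0411) and library totals (0.0413), and without KO 055 (log2 fold change 1.26, adjusted p = 0.0415), but not without KO 055 and control 052 together (1.30, adjusted p = 0.0922). The other members of the dedifferentiation and progenitor list were not past the threshold, so 0 of 9 passed with edgeR and 1 of 9 with DESeq2 and with voom. Serpina7, on the same list, was at 37.1 ± 13.4 against 21.4 ± 4.21 CPM (unadjusted p = 0.00283), again with its highest value, 59.4 CPM, in KO 055. Its log2 fold change of 0.79 was 0.55 without KO 055 and 0.52 without KO 055 and control 052 together. The most abundant members, Fgf12 (79.8 ± 8.11 in controls and 89.9 ± 9.72 CPM in KO islets) and Cd81 (78.1 ± 7.09 and 87.2 ± 15.2), overlapped. The median of that list was 0.17.

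None of the 16 tested members of the senescence and p53 target list passed with edgeR, 4 passed with DESeq2 (Cdkn1a, Ccng1, Eda2r and Phlda3) and 1 with voom (Ccng1). An unadjusted p under 0.05 was reached by 7 of the 16, of which 6 had higher means in KO islets. Over all genes tested 7.18% reached it, 3.47% higher and 3.71% lower. Cdkn1a, the p21 inhibitor of the cell cycle, was at 25.6, 18.2, 23.6, 18.3 and 19.5 CPM in controls and 52.1, 35.1, 30.5, 30.3 and 29.5 CPM in KO islets. The groups did not overlap, KO 055 stood highest, and the adjusted p was 0.114 (log2 fold change 0.76), 0.0696 without KO 055 (log2 fold change 0.57) and 0.046 without KO 055 and control 052 together (0.65). Ccng1, cyclin G1, was at 149, 141, 161, 151 and 149 CPM against 221, 188, 192, 175 and 177 CPM (log2 fold change 0.34, adjusted p = 0.0672). Eda2r, a receptor of the TNF family, was at 1.97 ± 0.375 and 3.37 ± 0.187 CPM (0.77, adjusted p = 0.0642), and Phlda3, an inhibitor of AKT, at 2.09 ± 0.346 and 3.69 ± 0.798 CPM (0.82, adjusted p = 0.114). Bax and Aen, genes of apoptosis, differed less, with log2 fold changes of 0.13 and 0.27. Igf1r, the growth factor receptor, was at 244 ± 15.7 and 216 ± 27.5 CPM. Cdkn2a, the locus of the p16 senescence inhibitor, was low in both groups, 0.501 ± 0.202 and 0.463 ± 0.11 CPM. The median of the list was 0.10, inside the range of the middle 90% of all genes. That range is of single genes, and a median of 16 varies less, so lying inside it says little.

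Of 432 different genes tested over 36 lists of pathways and cell types, 10 passed, and 27 of the lists held none. Over all genes tested 0.155% passed. The lists were chosen with earlier results of these data known, so the count is no neutral survey of pathways. None of the 8 islet hormones passed with edgeR or voom. Ins2, the main mouse insulin gene, was at 78600 ± 5590 in controls and 72100 ± 5480 CPM in KO islets (adjusted p = 0.704), and Ins1 at 38800 ± 3510 and 37800 ± 3500 CPM. Amylin (Iapp) was at 19600 ± 1620 and 19300 ± 1310 CPM, glucagon (Gcg) at 23100 ± 3770 and 21500 ± 2800 CPM, and somatostatin (Sst) at 1510 ± 38.1 and 1480 ± 146 CPM. Pancreatic polypeptide (Ppy) varied most within KO islets, from 940 CPM in 122 to 3720 CPM in 055, against 1950 to 2590 CPM in controls. Its log2 fold change was -0.11, and -0.44 without KO 055. Peptide YY (Pyy) varied with it, from 621 to 1370 CPM in KO islets and 1040 to 1150 CPM in controls. Ghrelin (Ghrl) was the hormone with the lowest p, at 2.31, 4.46, 3.03, 2.54 and 3.8 CPM in controls and 2.35, 1.85, 1.82, 1.83 and 1.42 CPM in KO islets. Only KO 055 overlapped the controls, and the gene passed with DESeq2 (0.0348) but not with edgeR (log2 fold change -0.79, adjusted p = 0.228).

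Genes of beta cell identity did not pass with edgeR, DESeq2 or voom (0 of 18 tested, median -0.04). Of the 18, 2 had an unadjusted p under 0.05, against 7.18% of all genes. The transcription factor Pdx1, whose promoter drives the Cre, was at 123 ± 7 in controls and 134 ± 8.2 CPM in KO islets (unadjusted p = 0.0358, adjusted p = 0.637). Neurod1 was at 221 ± 8.59 and 205 ± 11.2 CPM (unadjusted p = 0.0413). The maturity factors Mafa (184 ± 30.3 and 183 ± 20.4 CPM), Nkx6-1 (295 ± 8.27 and 305 ± 18.1) and Ucn3 (571 ± 31.8 and 569 ± 17.9) overlapped between the groups. The same held for the glucose transporter Slc2a2 (892 ± 102 and 816 ± 41.7 CPM), the beta cell phosphatase G6pc2 (2020 ± 276 and 1820 ± 210) and the oxidoreductase Ero1lb (3690 ± 193 and 3540 ± 132). Among 16 genes of glucose sensing and incretin signalling, with Abcc8 of the ATP-sensitive potassium channel at 1120 ± 52.4 and 1150 ± 72.5 CPM, none passed with any of the 3 tools and Gpd2 had an unadjusted p of 0.0356. Of the 14 genes that beta cells normally silence, such as Zfp36l1 (18.7 ± 1.41 and 19.4 ± 2.76 CPM) and Hk1 (18.2 ± 2.98 and 17.2 ± 3.26), none had an unadjusted p under 0.05 or passed with any tool.

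Alpha, delta and pancreatic polypeptide cell genes did not pass with any of the 3 tools. The alpha cell gene Gc had an unadjusted p of 0.033, with a log2 fold change of 0.27 (0.17 without KO 055, which was highest at 147 CPM), while Ttr was at 1010 ± 136 and 937 ± 91.9 CPM. Among delta and polypeptide cell genes Ghsr, the ghrelin receptor, had an unadjusted p of 0.0373. Of 14 genes of prohormone processing and granule proteins none passed with edgeR or voom. An unadjusted p under 0.05 was found for 3 (7.18% of all genes), all with higher means in KO islets. They were Ptprn (648 ± 26.2 against 576 ± 19.7 CPM, adjusted p = 0.178, 0.00397 with DESeq2), Chgb (2200 ± 117 against 1960 ± 146 CPM) and Vgf (20.6 ± 1.26 against 16.4 ± 2.68 CPM). The most abundant granins overlapped, Chga at 12600 ± 306 and 12600 ± 554 CPM and Scg2 at 11000 ± 1550 and 10600 ± 969 CPM in KO and control islets.

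Of the proposed trefoil receptors, Cxcr4 was at 7.67 ± 1.38 in controls and 6.99 ± 1.11 CPM in KO islets, its ligand gene Cxcl12 at 10.6 ± 0.904 and 11.9 ± 3.36 CPM, and the scavenger receptor Ackr3 at 3.8 ± 0.542 and 3.81 ± 0.454 CPM. Lingo3, proposed as a receptor in other epithelia, was at 3.06 ± 0.557 and 1.9 ± 0.119 CPM without overlap (log2 fold change -0.68, adjusted p = 0.13, 0.0261 with DESeq2). Tff1 had 0 reads in all 10 libraries.

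In the lists of stress and signalling genes that follow, Sgk1, Spry4 and Man2b1 passed with edgeR, where 0.155% of all genes passed. Over all genes tested 7.18% had an unadjusted p under 0.05, a share to set beside the counts that follow. Among glucocorticoid-responsive genes Sgk1 alone of 13 passed with edgeR, and Sgk1 and Cdkn1a with DESeq2. An unadjusted p under 0.05 was reached by 4 of the 13, of which Sgk1 and Cdkn1a had higher means, while Fkbp5 and Tsc22d3, also induced by glucocorticoids, had lower means in KO islets (81.3 ± 3.62 against 90.4 ± 2.4 CPM and 27.2 ± 1.65 against 30.5 ± 2.94 CPM, unadjusted p = 0.00172 and 0.0335). Among 12 feedback genes of receptor tyrosine kinases Spry4 passed, and the phosphatase genes Dusp4 and Dusp6 had log2 fold changes of 0.45 and 0.30 with unadjusted p of 0.00624 and 0.0332. The lysosomal list of 22 genes held Man2b1 alone, with Ctsa at an unadjusted p of 0.0378 in the opposite direction. No gene of the unfolded protein response (22 tested) had an unadjusted p under 0.05 or passed with any tool. Its chaperones Hspa5 and Hsp90b1 were at 3030 ± 419 and 2380 ± 206 CPM in controls and 3020 ± 593 and 2380 ± 138 CPM in KO islets. The same count of 0 held for immediate early genes (16 tested), oxidative phosphorylation (18 tested, for instance Atp5a1 at 586 ± 18.8 and 579 ± 21.7 CPM, and Atp5b at 516 ± 25.4 and 512 ± 23.5) and ribosomal protein genes (20 tested, Rpl10 at 606 ± 27.4 and 606 ± 22.5, Rplp0 at 366 ± 25.6 and 370 ± 20.2). Interferon-stimulated genes had 0 of 16 past the threshold with any tool. Of these, 3 had an unadjusted p under 0.05, Stat2 (log2 fold change 0.16) and Mx1 (0.92, and 0.58 without KO 055) with higher and Isg15 (-0.89) with lower means. Of 12 proliferation genes none passed with any tool. Their median was -0.24, beyond the lower end of the middle 90% of all genes, and moved to -0.37 without KO 055 and to -0.10 without control 052. The most abundant, Ccnd2 and Pcna, were at 1550 ± 94.2 against 1720 ± 144 CPM and 29.5 ± 2.66 against 33.2 ± 2.52 CPM (unadjusted p = 0.0278 and 0.0305).

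**Figure D4:**
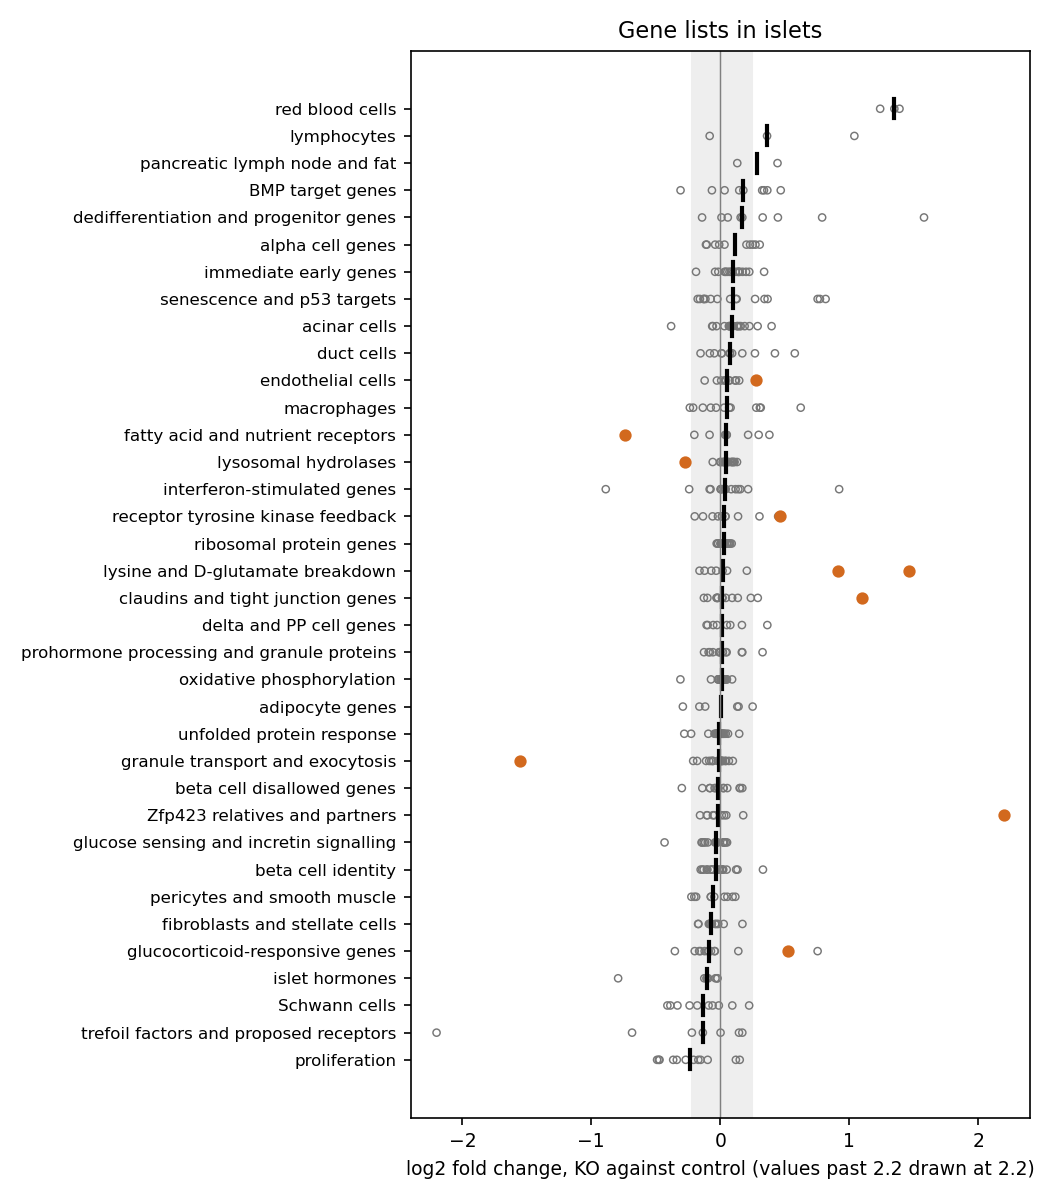
Log2 fold change, KO against control, of each tested member of 36 gene lists (open circles), with filled circles for members past an adjusted p of 0.05 and a bar at each list's median. The grey band holds the middle 90% of all genes tested, -0.22 to 0.25, and Zfp423 and Tff2, more than 2.2 from 0, are drawn at that distance.

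Markers of other cell types were compared because islets picked by hand can carry them, and in bulk RNA fewer cells of a type and less RNA per cell cannot be told apart. Of 10 such lists, 9 held no gene past the threshold with edgeR. Acinar genes had 0 of 21 past it and none with an unadjusted p under 0.05, and Pnlip (161 ± 90.1 in controls, 171 ± 122 CPM in KO islets) and Ctrb1 (140 ± 76.8 and 147 ± 91) varied widely within both groups. Among duct genes Anxa4 was higher in every KO library (168 ± 12.8 against 140 ± 6.95 CPM, adjusted p = 0.114, passing with DESeq2 at 0.00192 and with voom at 0.0447), while the keratin gene Krt7 was at 135 ± 5.73 against 143 ± 7.9 CPM. Summed duct levels were 462 to 507 CPM in controls and 487 to 540 CPM in KO islets. Of 12 endothelial genes 3 had an unadjusted p under 0.05 (7.18% of all genes), all with higher means in KO islets. Beside Egfl7 they were Tek and Plvap, with unadjusted p of 0.00619 and 0.0336 and log2 fold changes of 0.15 and 0.12. Over the whole endothelial list log2 fold changes ran from -0.121 to 0.281, with a median of 0.055.

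Fibroblast, pericyte and Schwann cell genes showed no member with an unadjusted p under 0.05, and none passed with DESeq2 or voom. Col3a1 was at 52.1 ± 7.46 in controls and 51.4 ± 22.8 CPM in KO islets, Sparc at 103 ± 7.83 and 98.5 ± 13.8, Rgs5 at 319 ± 15.7 and 331 ± 19.3, and Notch3 at 32.6 ± 0.692 and 31 ± 3.86. Of 12 macrophage genes Mrc1 had an unadjusted p of 0.0102 (4.1 ± 1.13 against 2.65 ± 0.576 CPM), Cd74 was at 134 ± 15.4 against 137 ± 13.2 CPM and the complement gene C1qa at 58.1 ± 4.6 against 56.9 ± 3.8 CPM. Lymphocyte genes were sparse, with Cd79a at 5.25 ± 0.89 against 5.55 ± 1.76 CPM and Lck at 1.57 ± 0.509 against 1.2 ± 0.274 CPM. Lymph node and fat markers were also low, Fabp4 at 13.3 ± 1.17 against 12.1 ± 0.933 CPM and Madcam1 at 0.473 ± 0.31 against 0.362 ± 0.208 CPM. Haemoglobin genes were set by a few libraries. Hbb-bs was at 49.5, 11, 14, 9.93 and 11.4 CPM in controls and 152, 17.7, 51, 15.9 and 11.3 CPM in KO islets, and Hba-a2 at 13.7 and 38.1 CPM in control 052 and KO 055. The median log2 fold change of the 3 red cell genes tested, 1.35, was 0.35 without KO 055 and 2.10 without control 052.

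The genes that passed in islets were set beside their change in E16.5 pancreas, where 3 KO and 3 control embryos were measured, and tissue, age and sex differ together. The difference between both genotype effects was tested as an interaction over all 16 libraries, in which 1137 of 15823 genes (7.19%) passed. Of the 22 islet genes, 14 differed from fetal pancreas, 9 of them in every fit with 1 library left out. These genes were chosen for their islet change, so that count is a description. In 10 of the 22 the direction was the same at both ages. The share over all genes was not worked out, so no agreement between ages is read from that count.

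Zfp423 was at 24 ± 4.67 CPM in control and 23.4 ± 4.74 CPM in KO pancreata, with a log2 fold change of -0.04 against 5.98 in islets (difference 6.02, SE 0.821, adjusted p = 0.00075). Mctp1 went the other way in the fetus, at 2.46 ± 0.238 in control and 4.88 ± 0.852 CPM in KO pancreata (difference -1.56, adjusted p = 0.000424). 9030617O03Rik and Aass were close between the fetal groups, with log2 fold changes of -0.09 and -0.08, and differed from islets by 0.99 and 1.53 (adjusted p = 0.000424 and 0.0025). Ambp, Spry4, Cdh23 and Cldn2 had lower means in fetal KO pancreas, by -0.35, -0.37, -0.95 and -0.62, not tested in pancreas alone. The fetal groups overlapped for Cdh23 (0.91 ± 0.399 CPM in KO and 1.79 ± 0.927 CPM in control pancreata). They also overlapped for Cldn2 (8.4 ± 4.66 and 12.8 ± 4.64 CPM).

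Ffar2 and Mlph had lower means in KO tissue at both ages. The change in pancreas alone is given without a test, and groups of 3 often lie apart by chance. Ffar2 was at 44.3, 53.6 and 34.5 CPM in control and 29.6, 16.9 and 20.6 CPM in KO pancreata. Its log2 fold changes of -0.74 in islets and -0.97 in pancreas did not differ beyond their error (difference 0.23, SE 0.215, adjusted p = 0.582). Mlph was at 7.79, 8.49 and 7.92 CPM against 2.1, 4.92 and 4.06 CPM, with log2 fold changes of -1.55 and -1.15 (difference -0.40, SE 0.395, adjusted p = 0.613). Tff2 was at 28.8 ± 7.45 in control and 4.21 ± 4.02 CPM in KO pancreata, -2.81 on the log2 scale against -3.06 in islets (difference -0.25, SE 0.889, adjusted p = 0.92). Trpm2 was higher in KO tissue by 0.38 and 0.42 (difference -0.04, SE 0.167, adjusted p = 0.973). A p above the threshold does not show that effects were equal at both ages.

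**Figure D5:**
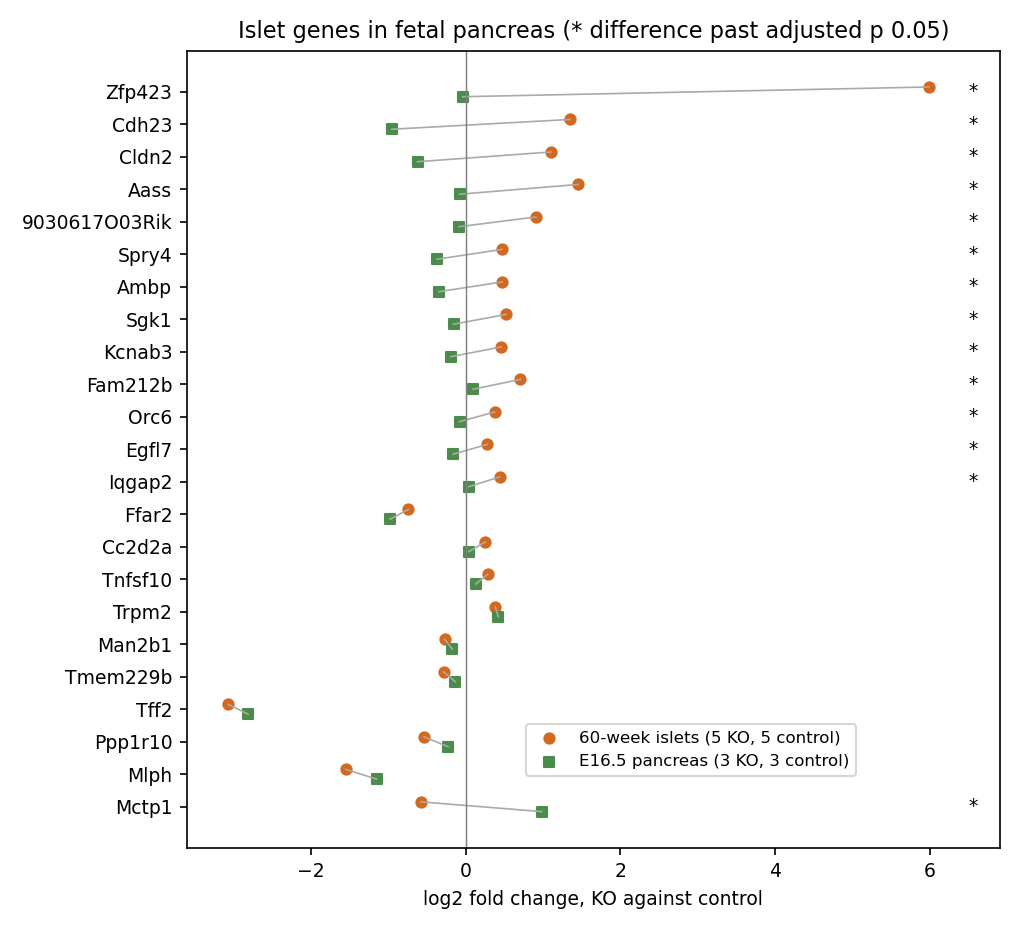
Log2 fold change, KO against control, of Tff2 and the 22 islet genes in 60-week islets (circles, 5 against 5) and in E16.5 pancreas (squares, 3 against 3), with stars where the difference passed an adjusted p of 0.05. Ffar2, Mlph and Trpm2 are among the genes with no star and with the same sign in both tissues, and Zfp423 differs most, at 5.98 against -0.04.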

How the data were processed

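Polyadenylated RNA was sequenced from hand-picked islets of 10 mice and from 6 E16.5 pancreata, and the genotype label with the sample title gave each group. The authors deposited raw counts, which are whole numbers whose sum differs between libraries. Per the submitters' processing notes, the build was mm10 and the tools were edgeR, HTSeq 0.11.1, STAR 2.6.0 and Trimmomatic, with no role given. No source used here states the annotation version or whether counting used strand. The division of reads between genes overlapping on opposite strands is therefore uncertain (Cdh23 with Vsir, Ambp with Eno1b, Iqgap2 with F2rl2). Ins1 and Ins2, the haemoglobin genes and the ribosomal protein genes have near-identical copies, and the division of reads among them is uncertain. TPM was computed from the counts and the gene length in kb that the authors deposited.

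Counts were tested with edgeR 4.0.16 (quasi-likelihood F test, R 4.3.3) after TMM scaling, with filterByExpr at its defaults and Benjamini-Hochberg adjustment over all genes tested, on the 10 islet libraries for the genotype effect and on all 16 for its interaction with tissue. CPM are TMM-scaled. Animal numbers were not shared between groups, so the fits were unpaired, and libraries of one group always differed by more than sampling noise (lowest chi-square per degree of freedom 6.28). On simulated counts with known changes, the islet fit was checked with edgeR, robust edgeR, DESeq2 and voom, and the interaction with edgeR alone. Other settings were not checked in that way. The counts were drawn with the spread that edgeR estimated, which may favour edgeR. DESeq2 made more false calls there than edgeR or voom, above its nominal rate, and the limit that this check sets on its false calls was raised after they were seen. Alternatives were RLE scaling, library totals, no filter, a filter at a mean of 1 CPM, DESeq2 1.42.0, limma-voom of limma 3.58.1 with sample weights, robust edgeR, the summed acinar CPM as a covariate, only animals whose numbers begin with 8, leaving out each library, and, added after seeing the data, leaving out KO 055 with control 052.

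The genes and lists were chosen with earlier results of these data known. Named by rule were Tff2, the genes that passed, the 10 next below the threshold, members of each list that passed or else its 2 most abundant, the 8 hormones and a fixed panel, 101 genes as reported here, and 28 more were named after their values were seen. Some further genes named in either way were left out. No list was tested as a set. Promoter sequences are from RefSeq on GRCm38.p6, which has the coordinates of mm10.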

Additional observations from a re-analysis of the deposited data

Results flagged for a closer look

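In 16 of 278 groups of 5 libraries checked, over the named genes and the marker sums, 1 library stood apart from the other 4, and chance alone sets apart a library in about 1 in 20 such groups. KO 055 stood highest for Aldh1a3 (63.1 CPM, the others 25.4 to 31), Hspa5 (4070 CPM, the others 2680 to 2850), Cdkn1a (52.1 CPM, the others 29.5 to 35.1), Hbb-bs (152 CPM, the others 11.3 to 51), Hba-a2 (38.1 CPM, the others 3.06 to 13.2) and the summed endothelial list (1220 CPM, the others 1030 to 1050). Control 052 stood highest for Hbb-bs (49.5 CPM, the others 9.93 to 14), Hba-a2 (13.7 CPM, the others 2.22 to 3.81) and the summed red blood cell list (68.3 CPM, the others 13.2 to 18.9).

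Single genes stood apart in other libraries. Mlph was at 16.9 CPM in KO 122 (the others 6.04 to 9.17) and Ffar2 at 20 CPM in KO 845 (the others 16.2 to 17.2). Control 829 was highest for Fgf12 (93.7 CPM, the others 72.2 to 78.2) and Dusp4 (14.2 CPM, the others 10.8 to 11.5). Control 826 was lowest for Smad7 (13.2 CPM, the others 14.4 to 14.7) and Atp5a1 (553 CPM, the others 591 to 598). The summed lymph node and fat list was highest in KO 803 (16.4 CPM, the others 13.1 to 13.6).

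The genotype effect in islets differed from that in E16.5 pancreas, by the interaction test of edgeR, in 14 of the 22 genes that passed in islets. Over all genes 7.19% differed. The 22 were chosen for their islet change, which the interaction uses again, so the count is a description. In 9 of the 14 the difference passed in every fit with 1 library left out. On the log2 scale, islet minus pancreas, the difference was 6.02 for Zfp423, 2.3 for Cdh23, 1.72 for Cldn2, 1.53 for Aass, 0.99 for 9030617O03Rik, 0.83 for Spry4, 0.82 for Ambp, 0.68 for Sgk1, 0.65 for Kcnab3, 0.61 for Fam212b, 0.45 for Orc6, 0.44 for Egfl7, 0.4 for Iqgap2 and -1.56 for Mctp1. Tissue, age and sex differ together between both sets of libraries, and their parts cannot be told apart.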

How the results depend on the processing

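No paired analysis was possible because the KO and control mice share no animal numbers. Count of genes past the threshold: 22 in the reported fit, 22 to 28 with RLE scaling, library totals, no filter on low counts, a filter at a mean of 1 CPM, robust edgeR or the acinar covariate, and 31 with limma-voom. It was 111 with DESeq2, 16 with animals whose numbers begin with 8, 8 without KO 055 and control 052, and 5 to 26 with 1 library left out. With library totals the split was 18 higher and 4 lower, against 16 and 6. The direction of all 22 genes was the same in each of these fits. The interaction count of 1137 ranged from 515 (without E16.5 control 02) to 1186 (without E16.5 KO 18) with 1 library left out. Tff2 passed in islets with DESeq2 (log2 fold change -3.12). The difference between islets and E16.5 pancreas changed sign for Tff2 (-0.665 to 0.844 with 1 library left out), Man2b1 (-0.25 to 0.019) and Trpm2 (-0.148 to 0.118, and 0.041 with limma-voom). For genes that did not pass, log2 fold changes near 0 had no stable sign, and the cause was not tested. With RLE scaling Rab27a (0.001) changed sign. With library totals Hspa5 (0.016), Hsp90b1 (0.021), Atp5a1 (0.006), Atp5b (0.013), Col3a1 (0.012), Iapp (0.001), Mafa (0.011), Ucn3 (0.019), Rab27a (0.022) and Myrip (0.003) changed sign. With no filter on low counts Chga (-0.001), Rpl10 (-0.001) and Ackr3 (0) changed sign. With a filter at a mean of 1 CPM Rab27a (0) changed sign. With DESeq2 Rab27a (0) changed sign. With limma-voom Chga (-0.012), Fos (-0.616), Egr1 (-0.434), Rpl10 (-0.001), Pnlip (-0.357), Ctrb1 (-0.303), Mafa (0.049) and Ackr3 (-0.035) changed sign. With the acinar covariate Rpl10 (-0.002), Pnlip (-0.03) and Ackr3 (-0.004) changed sign. With only the animals whose numbers begin with 8 Gcg (0.014), Sst (0.017), Scg2 (-0.066), Fos (-0.899), Egr1 (-0.786), Atp5a1 (0.001), Atp5b (0.006), Pnlip (-0.553), Ctrb1 (-0.346), Col3a1 (0.099), Mafa (0.027) and Ucn3 (0.024) changed sign. With KO 055 and control 052 both left out Scg2 (-0.036), Pnlip (-0.024), Ctrb1 (-0.01), Cd79a (0.004), Mafa (0.028), Ucn3 (0.026), Rab27a (0), Ackr3 (-0.046) and Cdkn2a (0.036) changed sign. With 1 library left out, sign changes occurred in Ackr3 (-0.056 to 0.083), Atp5b (-0.034 to 0.012), Bambi (-0.176 to 0.021), Cd74 (-0.086 to 0.022), Cd79a (-0.249 to 0.027), Cdkn2a (-0.305 to 0.08), Chga (-0.017 to 0.023), Col3a1 (-0.236 to 0.152), Ctrb1 (-0.231 to 0.344), Ebf1 (-0.013 to 0.1), Egr1 (-0.842 to 1.193), Fos (-1.009 to 1.213), Hsp90b1 (-0.039 to 0.046), Hspa5 (-0.139 to 0.05), Iapp (-0.053 to 0.021), Ins1 (-0.078 to 0.016), Madcam1 (-0.011 to 0.75), Mafa (-0.072 to 0.083), Myrip (-0.11 to 0.098), Pnlip (-0.36 to 0.372), Ppy (-0.441 to 0.076), Pyy (-0.225 to 0.04), Rab27a (-0.02 to 0.019), Rpl10 (-0.021 to 0.023), Rplp0 (-0.025 to 0.045), Scg2 (-0.046 to 0.091), Sst (-0.077 to 0.019), Ucn3 (-0.021 to 0.031), Zfp36l1 (-0.002 to 0.103) and Zfp521 (-0.085 to 0.141). Genes under about 1 CPM rest on few reads per library.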
